A study of Neurospora crassa OR74A with 3 samples.

Results

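The genes described here are 8 markers of asexual spore formation and of the circadian clock in the filamentous fungus Neurospora crassa: the conidiation regulator fl (NCU08726), the conidiation genes con-6 (NCU08769), con-8 (NCU09235), con-10 (NCU07325) and con-13 (NCU07324), and the clock-controlled genes ccg-1 (NCU03753), ccg-14 (NCU07787) and ccg-15 (NCU08936). They were chosen by name, with earlier results of these data known. They make up 8 of the 9730 genes in the deposited read count tables. Levels are given as CPM, read counts scaled to the size of the library, and all 8 averaged 10 CPM or more over the libraries, the level set for comparing genes. RNA was sequenced from mycelia of 3 strains, with 1 library per strain. All of them are deleted for 3 β-glucosidase genes, whose products cleave cellobiose to glucose, and Δ3βG carries no other deletion named in the labels. Δ3βGΔclp1, written Δ3βGΔncu05853 in the labels, also lacks clp1 (NCU05853), a gene resembling those of cellodextrin transporters. Δ3βGΔcdt2Δclp1, written Δ3βGΔcdt2Δncu05853, lacks both clp1 and cdt-2 (NCU08114), which encodes a cellodextrin transporter. Cultures were inoculated with conidia, spent 16 h in sucrose medium and, after a wash, 4 h in medium with 2% cellobiose before harvest. No strain with intact β-glucosidase genes, no strain lacking cdt-2 alone and no culture from before the transfer was analysed here.

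Neurospora makes macroconidia, its orange asexual spores, on aerial hyphae that grow from the mycelium when nutrients or water run short or when it meets air. The fl protein is a transcription factor required for this step, and the con genes are known as transcripts that accumulate during conidiation. The ccg genes were found through transcripts that cycle with the circadian clock, and ccg-1 is the same gene as grg-1, whose transcript rises when glucose is withdrawn. Carbon supply, light and development are all known to act on genes of this group.

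Gene reads numbered 8586155 for Δ3βG, 9465639 for Δ3βGΔclp1 and 9808610 for Δ3βGΔcdt2Δclp1. clp1 had 4190, 2 and 0 reads in this order, and cdt-2 had 1907, 2842 and 9. The deleted β-glucosidase genes had between 0 and 47 reads in each library. With 1 library per strain there is no replicate check and no p-value, and the 95% intervals given in parentheses cover counting error only. The labelled tissue is mycelia, and all 8 markers were detected in each library. So was eas (NCU08457), the hydrophobin gene of the spore coat, which took 18.7% of the Δ3βG gene reads, 20.0% of those of Δ3βGΔclp1 and 0.305% of those of Δ3βGΔcdt2Δclp1. In RNA from whole cultures, fewer cells of a type and less RNA per cell cannot be told apart.

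As a share of all gene reads, the 8 genes together made up 1.37% (Δ3βG), 1.18% (Δ3βGΔclp1) and 1.18% (Δ3βGΔcdt2Δclp1), while their make-up differed. The totals behind these shares include eas, at 20.0% for Δ3βGΔclp1 but 0.305% for Δ3βGΔcdt2Δclp1, so their similarity depends on this denominator. Scaled with TMM factors, the summed levels were 12460.7, 10818.7 and 14193.5 CPM in the same order, highest for Δ3βGΔcdt2Δclp1. Between 84.8% and 90.2% of the reads of the 8 genes came from ccg-1 and ccg-15. Levels of different genes were compared as the deposited RPKM, which counts reads per kilobase of exon and is scaled to depth. In Δ3βG, ccg-1 stood highest at 8381 RPKM, the 2nd highest of all genes in that library. It was followed by ccg-15 at 1650.5, con-8 at 369, con-6 at 274, fl at 243, con-13 at 148, con-10 at 99.1 and ccg-14 at 3.05 RPKM. The order was the same in Δ3βGΔclp1, from 7082 RPKM for ccg-1 to 3.15 for ccg-14. In Δ3βGΔcdt2Δclp1, ccg-1 (9751 RPKM), ccg-15 (1365) and con-8 (579) kept the first places, and con-10 (113), con-6 (79.2), ccg-14 (23.6), fl (9.42) and con-13 (2.01) followed. con-13 and fl therefore stood below ccg-14, the lowest member in the other libraries. Every step between neighbours in these orders was larger than counting error, the smallest being con-6 over fl in Δ3βG at 1.13-fold (1.07 to 1.18).

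**Figure D1:**
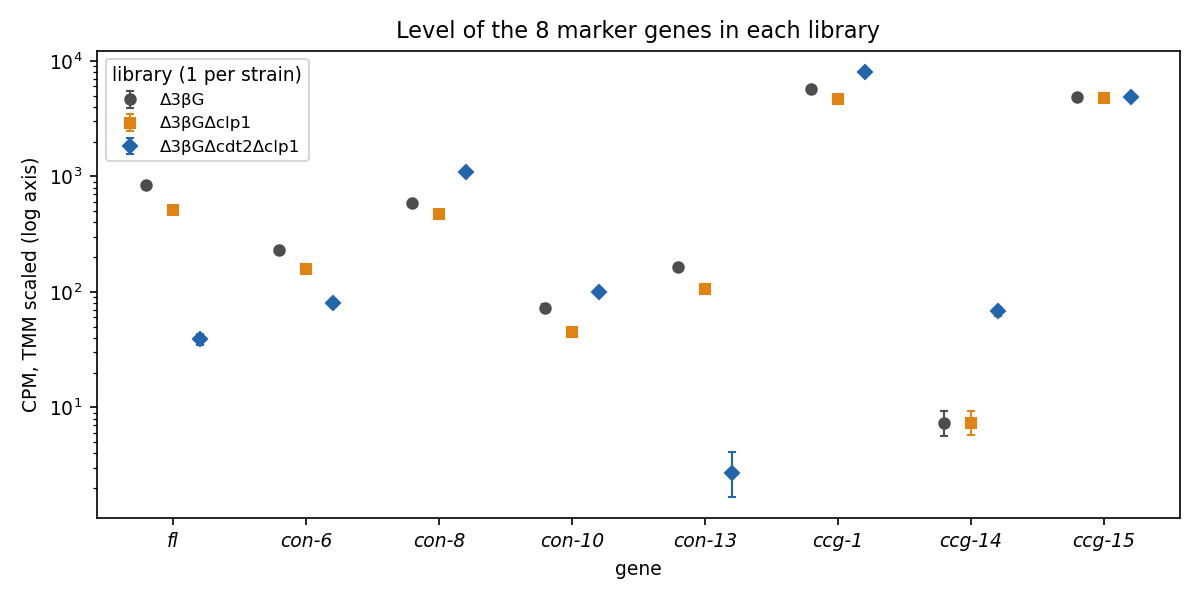
Level of each of the 8 genes in the 3 libraries, as CPM scaled with TMM factors on a log axis. Points are single libraries and bars are 95% Poisson intervals of the count; fl runs from 838 CPM in Δ3βG to 39.0 in Δ3βGΔcdt2Δclp1, while ccg-15 lies between 4811 and 4884 CPM in all 3.

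The regulator came first in the order of roles. fl had 7927 reads in the Δ3βG library, 5315 in that of Δ3βGΔclp1 and 319 in that of Δ3βGΔcdt2Δclp1, or 838, 516 and 39.0 CPM after scaling of the libraries with TMM factors. Its level was high in Δ3βG, lower in Δ3βGΔclp1 and far lower in Δ3βGΔcdt2Δclp1. By RPKM it was the 151st gene of Δ3βG, the 280th of Δ3βGΔclp1 and the 4745th of Δ3βGΔcdt2Δclp1.

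The con genes split into pairs with different orders over the libraries. con-13 had 1563, 1084 and 22 reads, or 165, 105 and 2.69 CPM in Δ3βG, Δ3βGΔclp1 and Δ3βGΔcdt2Δclp1. con-6, whose protein is known to be abundant in conidia and lost as they germinate, had 2194, 1630 and 658 reads, or 232, 158 and 80.5 CPM. Both had the order of fl, highest in Δ3βG and lowest in Δ3βGΔcdt2Δclp1. con-10 had 692, 460 and 818 reads, or 73.1, 44.6 and 100.1 CPM. con-8 had 5510, 4840 and 8993 reads, or 582, 469 and 1101 CPM. These latter genes were highest in Δ3βGΔcdt2Δclp1 and lowest in Δ3βGΔclp1.

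The clock-controlled genes differed from fl. ccg-1 had 53743, 48530 and 64930 reads, or 5679, 4707 and 7946 CPM, the order of con-8 and con-10. ccg-14, which encodes a predicted secreted protein of the cerato-platanin family, had 69, 76 and 553 reads, or 7.29, 7.37 and 67.7 CPM, so it was higher in Δ3βGΔcdt2Δclp1 than in both other libraries. ccg-15, also named acw-1 for an anchored cell wall protein, had 46219, 49596 and 39689 reads, or 4884, 4811 and 4857 CPM. With TMM factors its highest level was 1.02-fold its lowest, the smallest spread of the 8, but on totals without eas its log2 ratio to Δ3βG in Δ3βGΔcdt2Δclp1 was -0.71, farther from 0 than those of ccg-1, con-8 and con-10.

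The first comparison, Δ3βGΔclp1 against Δ3βG, is of strains whose labels differ only in clp1, with 1 library each. Conidiation markers were lower in Δ3βGΔclp1, none by 2-fold. fl was 1.62-fold lower (1.57 to 1.68), con-10 1.64-fold (1.45 to 1.85), con-13 1.57-fold (1.45 to 1.70), con-6 1.47-fold (1.37 to 1.56) and con-8 1.24-fold (1.19 to 1.29). ccg-1 was 1.21-fold lower (1.19 to 1.22), ccg-15 1.02-fold lower (1.002 to 1.028), and ccg-14 had a ratio of 1.01 with an interval from 0.720 to 1.42. Scaled to all reads ccg-15 had a log2 ratio of 0.006, and on library totals ccg-14 had -0.001. The direction of both therefore depends on the scaling. Of 6545 genes compared, 1.24% were at least 2-fold apart, 0.565% higher and 0.672% lower, against 0 of the 8.

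Of the members, 7 had log2 ratios below 0 with TMM factors, as did 3263 of the 6545 genes compared. The median over all 8 members was -0.43, beside 0.00 over all genes compared. con-10 had 112 genes below it in this ranking, fl 119, con-13 146 and con-6 234. The 5th percentile of all genes compared was -0.48, and the log2 ratios of con-10 (-0.71), fl (-0.70), con-13 (-0.65) and con-6 (-0.55) lay under it. con-8 at -0.31 and ccg-1 at -0.27 lay within the range from the 5th to the 95th percentile, as did both remaining members. The hydrophobin gene eas stood apart from fl and the con genes, at 0.12. How far such ratios vary between cultures of the same strain was not measured.

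The second comparison, Δ3βGΔcdt2Δclp1 against Δ3βG, set the strain lacking both cdt-2 and clp1 against the strain with both. It shares the Δ3βG library with the first. fl, con-13 and con-6 were lower and ccg-14 was higher by at least 2-fold, whereas con-8, con-10, ccg-1 and ccg-15 lay within 2-fold. Most extreme was con-13, 61.3-fold lower (40.4 to 98.2). For fl the fold was 21.5 (19.2 to 24.1), and for con-6 it was 2.88 (2.64 to 3.15), both lower. ccg-14 was 9.28-fold higher (7.22 to 12.1). The count was 3 of 8 lower and 1 of 8 higher, where 15.4% of all genes compared were lower and 19.4% higher, or 34.8% in all. At 4-fold, 2 of 8 were lower and 1 higher, and of all genes compared 4.37% were lower and 8.24% higher, 12.6% in all. Among the members within 2-fold, con-8 was 1.89-fold higher (1.83 to 1.95), ccg-1 1.40-fold (1.38 to 1.42) and con-10 1.37-fold (1.24 to 1.52).

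The members spread over a wide part of the distribution in this comparison. Only 19 of the 6545 genes had a ratio below that of con-13, 47 below that of fl and 504 below that of con-6, and 232 had one above that of ccg-14. con-8 stood above 79.1% of the genes compared, ccg-1 above 68.2%, con-10 above 67.4% and ccg-15 above 51.0%. From con-13 at -5.91 to ccg-14 at 3.20 the log2 ratios spanned 9.12, and the 5th to 95th percentiles of all genes spanned 4.47. Their median was 0.22, beside -0.03 for all genes compared. Spans and distances between members do not depend on how the libraries are scaled.

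**Figure D2:**
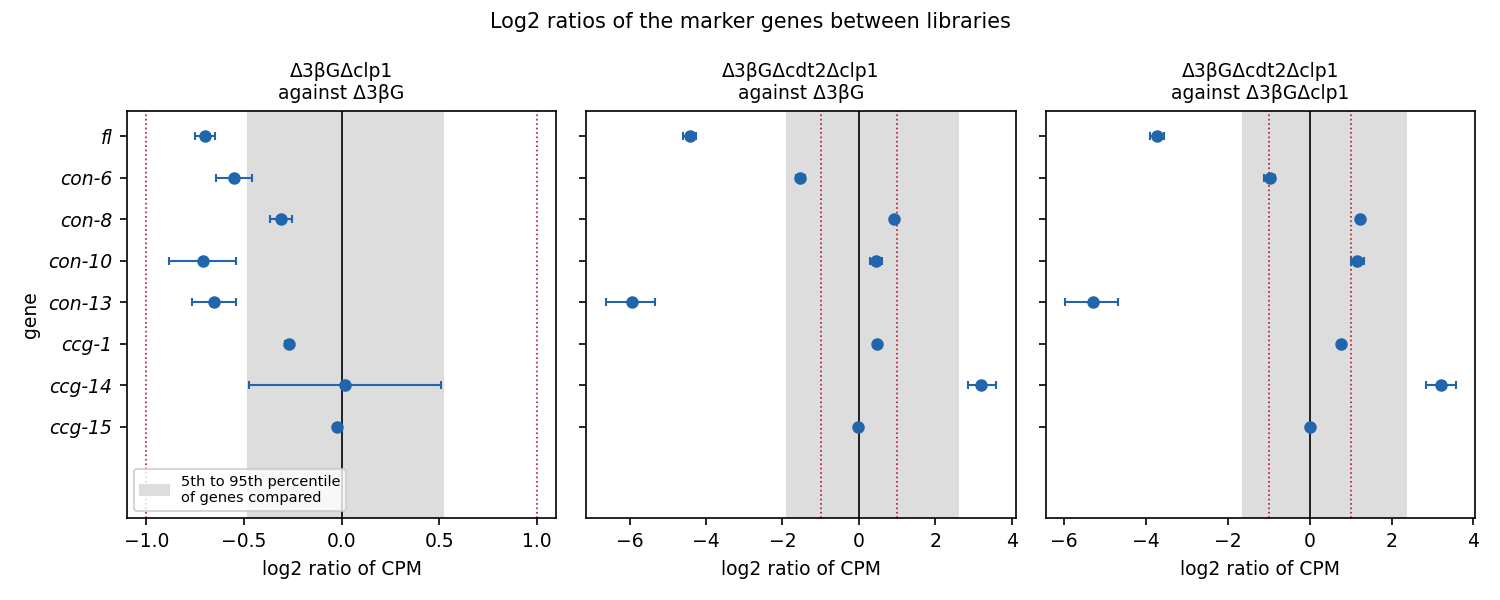
Log2 ratio of CPM of each of the 8 genes in the 3 comparisons, with 95% counting intervals as bars, the range from the 5th to the 95th percentile of the 6545 genes compared in grey and 2-fold as dotted lines; the x axes differ between panels. fl and the con genes lie below 0 in the left panel, and in the middle panel they spread from -5.91 (con-13) to 0.92 (con-8).

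Scaling moved the ratios of Δ3βGΔcdt2Δclp1 as a whole. Setting the libraries on totals without eas moved the median of all genes by -0.70 on the log2 scale and the ratios of the members with it. On that scale con-10 turned from 0.45 to -0.24 and ccg-1 from 0.48 to -0.21, while con-8 stood at 0.22 and ccg-15 at -0.71. The calls at 2-fold for con-13, fl, con-6 and ccg-14 held under all 5 other scalings, with con-6 between -2.22 and -1.53 and ccg-14 between 2.51 and 3.20. The direction of con-10 and ccg-1 against Δ3βG is therefore given with TMM factors and is not the same on every scale.

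**Figure D3:**
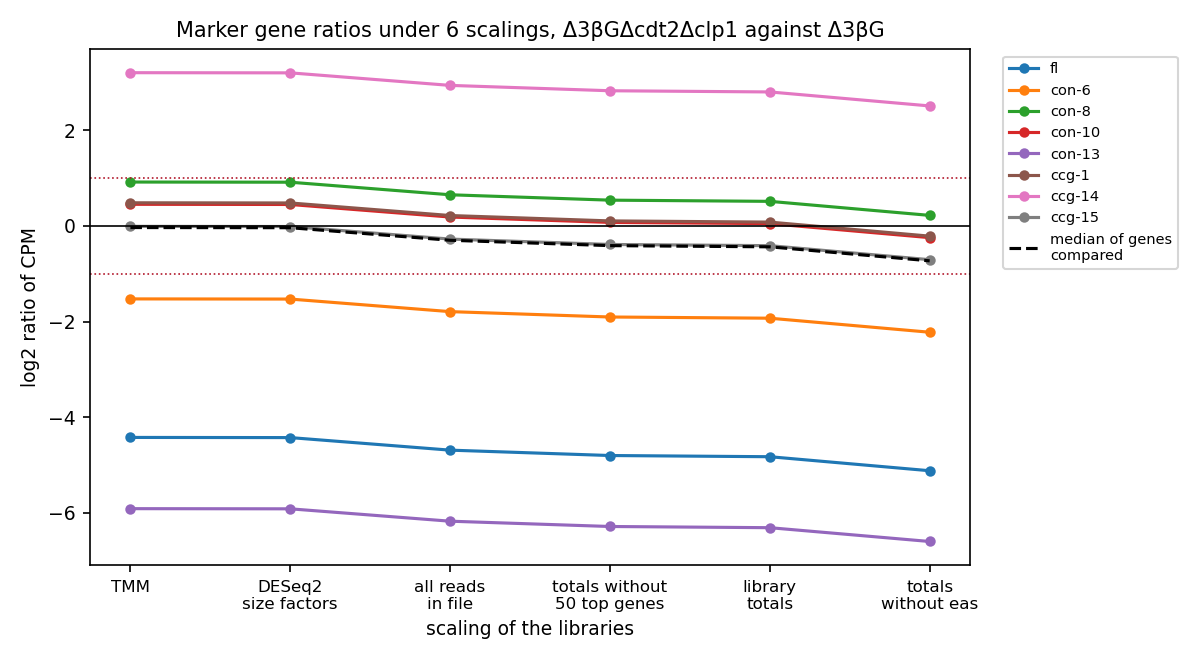
Log2 ratio of the 8 genes in Δ3βGΔcdt2Δclp1 against Δ3βG under TMM and 5 other scalings, with the median of all genes compared dashed and 2-fold dotted. The lines run in parallel: ccg-15 follows the median of all genes, con-13, fl and con-6 stay below -1 and ccg-14 above 1.

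con-10 and con-13 lie next to each other in the RefSeq gene table, and their ratio within a library needs no scaling. con-13 reads made up 69.3% of the reads of the pair in Δ3βG (67.4 to 71.2, exact binomial interval), 70.2% in Δ3βGΔclp1 (67.9 to 72.5) and 2.62% in Δ3βGΔcdt2Δclp1 (1.65 to 3.94). The first 2 shares overlap in their intervals, and the third lies far below both. Per exon length, con-13 was 1.49 times con-10 in Δ3βG (1.36 to 1.63) and 1.56 times in Δ3βGΔclp1 (1.40 to 1.74), whereas con-10 was 56.3 times con-13 in Δ3βGΔcdt2Δclp1. The ratio of con-13 to con-10 was thus 84.0-fold lower in Δ3βGΔcdt2Δclp1 than in Δ3βG.

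**Figure D4:**
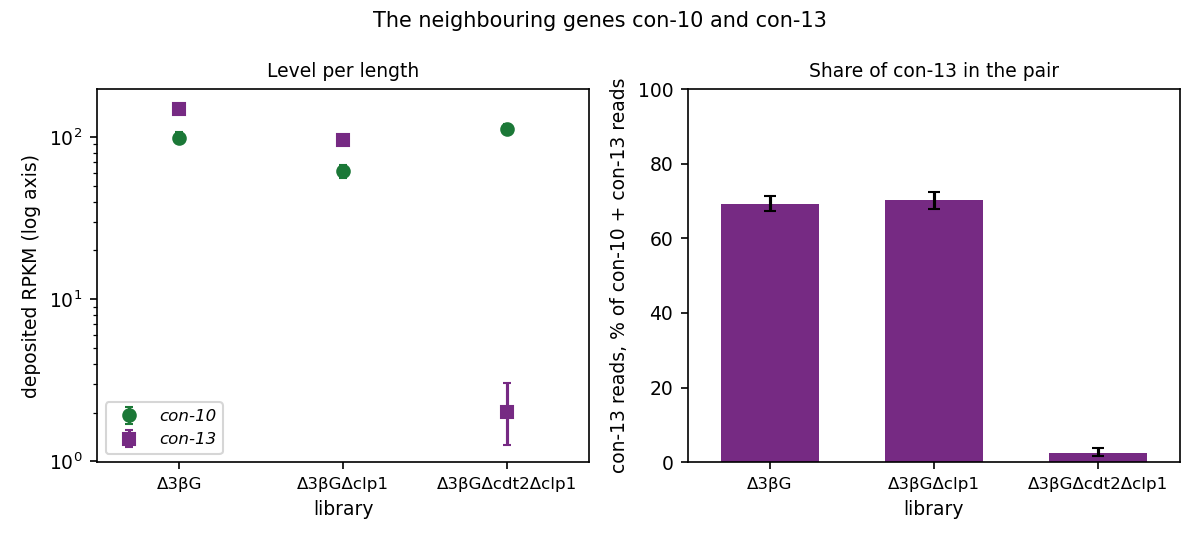
Left, deposited RPKM of the neighbouring genes con-10 and con-13 in each library on a log axis, with 95% Poisson intervals. Right, con-13 reads as a percentage of the reads of both genes, with exact 95% binomial intervals: about 70% in 2 libraries and 2.62% in Δ3βGΔcdt2Δclp1.

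Other members set against con-10 within a library gave the same split, though these ratios all share that gene. fl per exon length was 2.45 times con-10 in Δ3βG (2.27 to 2.65) and 2.47 times in Δ3βGΔclp1 (2.25 to 2.73), and con-10 was 12.0 times fl in Δ3βGΔcdt2Δclp1. con-6 was 2.77 times con-10 in Δ3βG, 3.09 times in Δ3βGΔclp1 and 0.702 times (0.632 to 0.778) in Δ3βGΔcdt2Δclp1. The ratio of con-8 to con-10 was 3.72 in Δ3βG (3.43 to 4.03), 4.91 in Δ3βGΔclp1 (4.46 to 5.42) and 5.13 in Δ3βGΔcdt2Δclp1 (4.78 to 5.52). con-8 and con-10 therefore stayed within 1.38-fold of their ratio in Δ3βG.

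Apart from con-10 and con-13 themselves, the genes next to the members had log2 ratios within 2-fold in Δ3βGΔcdt2Δclp1 against Δ3βG, with the exceptions of NCU09236 beside con-8 and 3 genes with 11 reads or fewer in each library. Beyond con-13, the next gene in the table, NCU07323, had 12, 14 and 14 reads, and NCU16846 before con-10 had 13, 7 and 20. fl lies between NCU08724, with at most 1 read in each library, and NCU08727, with 73, 58 and 68 reads. Beside ccg-14 lies col-26 (NCU07788), which encodes a transcription factor, with 1950, 1733 and 3321 reads and a log2 ratio of 0.98, and on its other side NCU07786, with 5, 4 and 11 reads. Beside con-6 lie NCU08770, at -0.73, and NCU08768, at 0.48. Beside con-8 lie NCU09236, with 34, 25 and 7 reads, and NCU09233, at 0.64. The neighbours of ccg-1 were NCU03752 and NCU03754, at 0.05 and -0.42. Of the neighbours of ccg-15, NCU08935 stood at 0.64 and NCU08937 had 2 reads or fewer in each library.

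The third comparison, Δ3βGΔcdt2Δclp1 against Δ3βGΔclp1, concerns strains whose labels differ only in cdt-2. The β-glucosidase gene gh1-1, deleted in both, had 0 and 47 reads. It shares a library with each of the comparisons above. con-13 was 39.1-fold lower (25.7 to 62.6) and fl 13.2-fold lower (11.8 to 14.8). ccg-14 was 9.18-fold higher (7.21 to 11.8), con-8 2.34-fold (2.26 to 2.43) and con-10 2.24-fold (2.00 to 2.52). con-6 was 1.96-fold lower (1.79 to 2.15), ccg-1 1.69-fold higher (1.67 to 1.71), and ccg-15 had a ratio of 1.01 (0.996 to 1.02). The count was 2 of 8 lower and 3 of 8 higher, where 11.9% of all genes compared were lower and 16.5% higher, or 28.5% in all. At 4-fold, 2 of 8 were lower and 1 higher, and of all genes compared 3.5% were lower and 6.63% higher, 10.1% in all. On 4 of the 5 other scalings con-8 and con-10 came within 2-fold and con-6 passed 2-fold, with DESeq2 size factors as the exception.

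Related genes were described from 4 further lists, also chosen with earlier results of these data known. The conidiation regulators, 11 genes other than fl, included 6 that were at least 2-fold lower in Δ3βGΔcdt2Δclp1 than in both other libraries and 5 that were not. Against Δ3βGΔclp1, where 11.9% of all genes compared were lower, the 6 ran from 2.35-fold lower (csp-1) to 30.1-fold (ada-6). In Δ3βGΔclp1 against Δ3βG, 10 of the 11 regulators had log2 ratios below 0, as did 3263 of the 6545 genes compared. The median of the 11 was -0.20, and none was 2-fold apart, beside 1.24% of all genes compared. Intervals of 8 of the 11 excluded a ratio of 1, and those of asm-1, ve-1 and rco-1 did not. With TMM factors these last genes had log2 ratios of -0.025, -0.007 and -0.003. Scaling to all reads moved the median of all genes by 0.028, so the sign of these genes depends on the scaling. csp-1 (NCU02713), named for conidial separation, was 1.89-fold lower (1.80 to 1.99) and csp-2 (NCU06095), a grainyhead-like factor with a mutant of the same kind, 1.65-fold (1.60 to 1.70). In Δ3βGΔcdt2Δclp1 against Δ3βG, 6 of 11 were at least 2-fold lower and 0 higher, where 15.4% of all genes compared were lower and 19.4% higher, with a median of -1.80 beside -0.03 for all genes compared.

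ada-6 (NCU04866), a zinc cluster factor, had 4011, 4976 and 131 reads in the order of libraries used above, and was 26.4-fold lower in the last than in the first (22.2 to 31.7). acon-3 (NCU07617), needed early in conidiophore development, had 2138, 1595 and 85 reads and was 21.7-fold lower (17.5 to 27.3). rca-1 (NCU01312), a Myb-type factor, was 11.7-fold lower (9.71 to 14.2), csp-2 5.98-fold (5.69 to 6.29), csp-1 4.45-fold (4.12 to 4.81) and acon-2 (NCU00478) 3.50-fold (2.96 to 4.15). ada-6 differed from the others in Δ3βGΔclp1, where it was 1.14-fold higher (1.09 to 1.19).

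The remaining regulators lay within 2-fold. rco-1 (NCU06205) and rcm-1 (NCU06842), a corepressor pair known to hold con-10 down in mycelium, had log2 ratios of -0.10 and 0.01 in Δ3βGΔcdt2Δclp1 against Δ3βG. The velvet gene ve-1 (NCU01731) stood at 0.07, asm-1 (NCU01414) at -0.22 and the glucose sensor gene rco-3 (NCU02582), for which the RefSeq table gives the symbol sor-4, at -0.62. On library totals, and on totals without eas, rco-3 also passed 2-fold.

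The further genes with a con or ccg symbol were 6, all of them ccg genes, and 5 averaged 1 CPM or more. Of these 5, 4 were at least 2-fold higher in Δ3βGΔcdt2Δclp1 than in Δ3βG and 0 lower, beside 19.4% and 15.4% of all genes compared, with a median of 1.68. Genes that have a ccg name only as a synonym are not in this list, among them eas (ccg-2), which was 46.2-fold lower in Δ3βGΔcdt2Δclp1 than in Δ3βG and 50.2-fold lower than in Δ3βGΔclp1. ccg-16 (NCU05495) had 3709, 7895 and 35924 reads and was 11.2-fold higher (10.8 to 11.6). ccg-9 (NCU09559), a trehalose synthase gene, had 137, 180 and 1037 reads and was 8.77-fold higher (7.33 to 10.5). ccg-6 (NCU01418) was 3.21-fold higher (3.15 to 3.28) and ccg-13 (NCU08907) 2.74-fold (2.27 to 3.32), both within 2-fold on totals without eas. ccg-8 (NCU09686) was 1.22-fold lower with 605, 530 and 428 reads, and ccg-4 (NCU02500), a pheromone precursor gene, had 1, 0 and 0 reads. In Δ3βGΔclp1 against Δ3βG none of the 5 was 2-fold apart, beside 1.24% of all genes compared. The nearest was ccg-16 at 1.95-fold higher (1.88 to 2.03).

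Clock and light genes, 15 in all, were mixed. In Δ3βGΔcdt2Δclp1 against Δ3βG, 3 were at least 2-fold higher and 2 lower, with a median of 0.43. These counts are near the shares of all genes compared, 19.4% higher and 15.4% lower. The cryptochrome gene cry (NCU00582) had 303, 280 and 4044 reads and was 15.5-fold higher (13.7 to 17.4), and vvd (NCU03967) and al-2 (NCU00585) were 2.09-fold and 2.07-fold higher. The carotenoid gene al-3 (NCU01427) was 6.42-fold lower and the opsin gene nop-1 (NCU10055) 3.88-fold lower (3.48 to 4.34). vvd and al-2 came within 2-fold on 4 of the 5 other scalings, the phytochrome gene phy-2 passed 2-fold lower on 3 of them, and the median of the list turned negative on totals without eas, at -0.27. The core clock genes frq (NCU02265), wc-1 (NCU02356) and wc-2 (NCU00902) had log2 ratios of 0.43, 0.90 and -0.03. In Δ3βGΔclp1 against Δ3βG the median of the list was 0.00 and none was 2-fold apart, beside 1.24% of all genes compared.

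**Figure D5:**
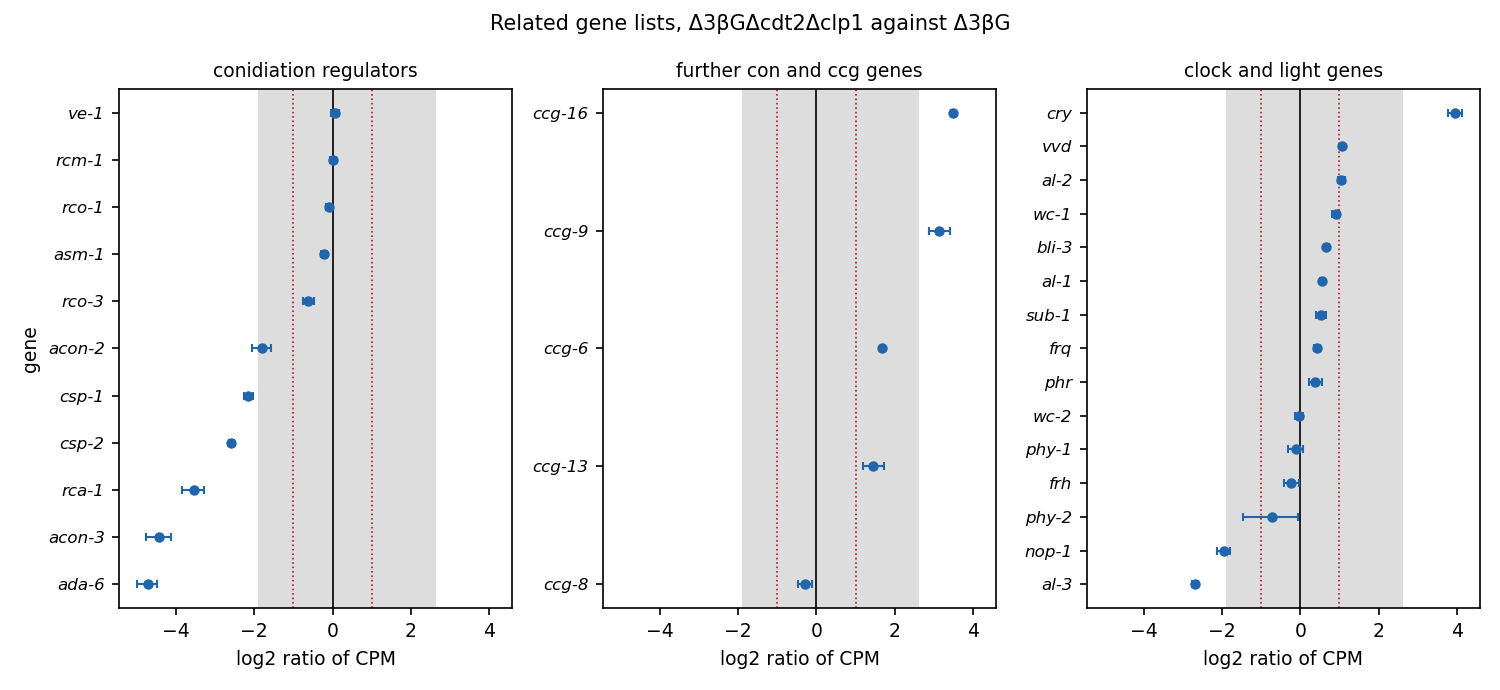
Log2 ratio of CPM in Δ3βGΔcdt2Δclp1 against Δ3βG for the conidiation regulators, the further ccg genes and the clock and light genes that average 1 CPM or more, with 95% counting intervals; grey marks the 5th to 95th percentile of all genes compared and dotted lines 2-fold. Of 11 regulators 6 lie at or below -1, of 5 ccg genes 4 lie above 1, and the clock and light genes lie on both sides.

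The genes whose pattern over the 3 libraries lay closest to each member were found by the Euclidean distance between centred log2 CPM values, among 6545 genes. For fl these were NCU04959 and NCU07288, at distances of 0.02 and 0.10, and the closest gene with a symbol was the regulator acon-3, at 0.13. For con-13 they were NCU05859 and NCU08128, at 0.22 and 0.31, and gh18-4 (NCU04883), at 0.42. For con-10 they were NCU06803 and NCU04667, at 0.04 and 0.09, and the carotenoid gene al-1 (NCU00552), at 0.10, with 5493, 3597 and 6980 reads. The closest to con-6 were gh76-2 (NCU04262), at 0.01, and NCU10359, at 0.02, and those to con-8 were NCU07142, at 0.03, and col-26, at 0.04. For ccg-14 they were NCU10883 and NCU04401, both at 0.04, and cfp (NCU02193), the pyruvate decarboxylase gene, at 0.09, with 511, 601 and 4010 reads.

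How common each pattern was differed. Within a distance of 0.5 there were 11 genes for con-13, 29 for fl and 103 for ccg-14, against 273 for con-10, 835 for con-8 and 886 for con-6. ccg-1 had 1671 such genes, with NCU05294, NCU01807 and gh18-9 (NCU07035) the closest, and ccg-15 had 3007, with NCU00770, NCU01803 and ada-1 (NCU00499) the closest. These distances rest on 3 libraries and describe them alone.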

How the data were processed

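RNA was extracted from mycelia of 3 strains, 1 library each, and groups follow the strain named in the labels. The deposited read counts are whole numbers; TopHat and HTSeq are the tools named, per the submitters' processing notes. Their versions, the genome build, the annotation and the handling of strand are not given in the labels or headers. The authors' RPKM values divide each count by exon length and by the total of assigned and unassigned reads; RPKM recomputed in this way differed from them by at most 1.93e-08 of the value. Deposited exon lengths, in bases per the file headers, also served for ratios between genes within a library. Reads that name no gene made up 16.8%, 14.2% and 8.53% of all reads in Δ3βG, Δ3βGΔclp1 and Δ3βGΔcdt2Δclp1 and were left out of library sizes. With strand not stated, antisense overlaps cannot be separated.

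Counts were scaled with TMM factors (edgeR 4.0.16, R 4.3.3), and log2 ratios of CPM carry a prior of 0.5 counts. Folds carry no prior and have exact 95% intervals (Clopper-Pearson, on the sum of both counts); intervals cover counting error only. With 1 library per strain no test was possible, and a gene was counted when at least 2-fold apart. The 6545 genes compared averaged 10 CPM or more and exclude the 5 deleted genes. Alternatives were DESeq2 1.42.0 size factors, 4 kinds of totals, a prior of 5 counts, other filters and 4-fold. Ratios were tested on simulated counts with equal numbers of genes raised and lowered 4-fold. The simulation was not built to mimic the change in eas, so it does not bear on the choice of scaling.

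RefSeq (assembly NC12) supplied gene symbols for the identifiers, of which it holds 9729 of 9730, all 8 members among them. It served only for names and neighbours, so no coordinates are given, and no sequences were used here. The members and lists were chosen with earlier results of these data known. Further lists were conidiation regulators, clock and light genes, sexual development markers and further con and ccg genes; vel-2 and lae-1 were dropped because their identifiers did not carry those symbols there. Named were all members, their table neighbours, the closest patterns, and list members of at least 10 CPM that were 2-fold apart; other named list members were chosen after their values were seen.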

Additional observations from a re-analysis of the deposited data

How the results depend on the processing

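All 8 log2 ratios of a comparison move by 1 constant when only the scaling changes, apart from the prior. For Δ3βGΔclp1 against Δ3βG no scaling moved the median of all genes by more than 0.03. For Δ3βGΔcdt2Δclp1 against Δ3βG it moved by -0.40 on library totals, -0.38 on totals without the 50 most counted genes, -0.27 on all reads and -0.70 on totals without eas, and the median of the 8 members, 0.22, became -0.181, -0.156, -0.0437 and -0.475. Genes at least 2-fold lower became 1765, 1713, 1465 and 2515 (1008 with TMM), and on totals without eas 697 were higher (1267 with TMM). Higher genes were 55.7% of those at least 2-fold apart with TMM, and 33.3%, 34.4%, 40.6% and 21.7% on these scalings. For Δ3βGΔcdt2Δclp1 against Δ3βGΔclp1 the median of the members, 0.38, became -0.0021 on library totals, -0.0154 without the 50 genes, 0.0905 on all reads and -0.32 without eas. On each of these 4 scalings 1 member was at least 2-fold higher, in place of 3, and lower genes were 1541, 1571, 1300 and 2455 (782 with TMM), and the share of higher genes was 32.8%, 32.1%, 38.6% and 18.5% (58.0% with TMM), with 556 higher without eas (1082 with TMM).

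With no filter on low counts, 342 genes were higher and 293 lower in Δ3βGΔclp1 against Δ3βG (37 and 44 with the filter), and 115 and 99 at a mean of at least 1 CPM. Without a filter they were 1986 and 1607 in the second comparison and 1750 and 1315 in the third. At 4-fold these numbers were 4 and 1, 539 and 286, and 434 and 229, and 1 member, ccg-14, was 4-fold higher in the third comparison. DESeq2 size factors and the prior of 5 counts kept every member on its side of 2-fold. No log2 ratio of a member that was 2-fold apart changed sign under any setting tried. Of the members' values under other settings, 60 moved by more than the distance from the middle of their counting interval to its end, and 84 did not. The cause of the shifts was not tested. No paired analysis was possible because each strain has 1 library. Depth limits con-13 in Δ3βGΔcdt2Δclp1 (22 reads) and ccg-14 in Δ3βG and Δ3βGΔclp1 (69 and 76 reads).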

Other observations

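Genes that carry a con or ccg name only as a synonym in the RefSeq table differed in direction, and eas, also named ccg-2, was 46.2-fold lower in Δ3βGΔcdt2Δclp1 than in Δ3βG. acu-6 (NCU09873), also named con-3, encodes phosphoenolpyruvate carboxykinase and had 13996, 5502 and 352 reads in Δ3βG, Δ3βGΔclp1 and Δ3βGΔcdt2Δclp1. This is the order of fl, con-6 and con-13. gpd-1 (NCU01528), also named ccg-7, encodes glyceraldehyde phosphate dehydrogenase and had 7401, 12734 and 46207 reads, the opposite order. cmt (NCU05561), the copper metallothionein gene also named ccg-12, had 2537, 2937 and 4255 reads, with a log2 ratio of 0.96 in Δ3βGΔcdt2Δclp1 against Δ3βG.

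Markers of sexual development were mixed, and 2 of the 9 had 3 reads or fewer in each library. The mating type gene mat A-1 (NCU01958) had 0 reads in all libraries, and poi-2 (NCU05768) had 0, 3 and 1. app (NCU04533), named for an abundant perithecial protein, had 2579, 3518 and 6 reads in the same order of libraries. asd-1 (NCU05598), named for ascus development and encoding a rhamnogalacturonase-like protein, had 27, 32 and 1241 reads. The pheromone receptor gene pre-2 (NCU05758) had 53, 73 and 328 reads, and asd-4 (NCU15829) 551, 423 and 200. Summed over the list, levels were 385 CPM in Δ3βG, 440.2 in Δ3βGΔclp1 and 283 in Δ3βGΔcdt2Δclp1, of which app alone had 273, 341 and 0.734. Of the 7 markers averaging 1 CPM or more, 5 had log2 ratios above 0 in Δ3βGΔcdt2Δclp1 against Δ3βG. This was so for 3184 of the 6545 genes compared. The median of the 7 was 0.49 with TMM factors and -0.21 on totals without eas. The part of these markers in the levels of the members was not tested.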
